A study of Mus musculus with 4 samples.

Results

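The genes described are the 4 MEF2 paralogues of the mouse and 6 genes for proteins that work with MEF2, 10 genes of the 51826 rows of an RNA-seq table of quadriceps muscle. They were chosen by name and role: Mef2a, Mef2b, Mef2c and Mef2d, the cofactors Vgll2 and Vgll4, the repressor Cabin1, the acetyltransferase Ep300 and the H3K4 methyltransferase subunits Ash2l and Kmt2d. PolyA RNA came from sedentary male mice at 20 weeks of age on a C57BL6/J background, 2 wild-type (WT) and 2 Mef2dα2 exon knockout (Mef2dα2 Eko) mice, with 1 library per mouse. The knockout mice lack the α2 exon of Mef2d through a CRISPR-Cas9 deletion carried in the germline, so every cell type has the allele, and the sources used here do not say which founder line gave these mice. Each gene has 1 expected count per library, the number of reads that the RSEM program assigned to it, and the libraries held between 72626757 and 85176059 counts. Levels are given in CPM, the counts scaled to a common library size after TMM normalization, and per kilobase (kb) of mean protein-coding transcript where genes are compared with each other. A positive log2 fold change means a higher level in Mef2dα2 Eko mice. Adjusted p-values (Benjamini-Hochberg) come from the quasi-likelihood test of edgeR over the 16120 genes with enough counts.

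Many genes of muscle contraction and metabolism carry A/T-rich sites for MEF2, a family of MADS-box transcription factors. They activate or repress according to the partners they hold: acetyltransferases such as EP300 open chromatin, CABIN1 and the class II histone deacetylases keep MEF2 targets silent until calcium signals release them, and ASH2L and KMT2D belong to complexes that methylate lysine 4 of histone H3 at promoters and enhancers. VGLL proteins have no DNA-binding domain of their own and act through TEAD factors, and VGLL2 also binds MEF2 in skeletal muscle.

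The difference between the genotypes lies in 1 of a pair of mutually exclusive exons, and the sequences below show what was removed and what its paralogues carry at the same place. On GRCm38 (GENCODE release M21), the α1 exon of Mef2d is chr3:88158034-88158171 and the deleted α2 exon is chr3:88158221-88158355, both on the plus strand. Mef2a, on the minus strand, has an α1-type exon at chr7:67268269-67268400. Mef2c, on the plus strand, has an α1-type exon at chr13:83625265-83625408 and an α2-type exon at chr13:83625470-83625607. The exons are named by their order and by which Mef2d exon they match better, and capitals mark the bases that the printed exons of 1 type have in common in a MAFFT alignment.
Mef2d alpha1: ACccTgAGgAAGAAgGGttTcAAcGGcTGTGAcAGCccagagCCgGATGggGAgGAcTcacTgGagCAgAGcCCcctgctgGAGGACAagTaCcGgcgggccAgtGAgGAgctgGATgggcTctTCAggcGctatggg
Mef2a alpha1-type: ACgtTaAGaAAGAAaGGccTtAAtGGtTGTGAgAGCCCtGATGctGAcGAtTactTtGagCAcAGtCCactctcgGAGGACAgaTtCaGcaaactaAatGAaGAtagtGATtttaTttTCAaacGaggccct
Mef2c alpha1-type: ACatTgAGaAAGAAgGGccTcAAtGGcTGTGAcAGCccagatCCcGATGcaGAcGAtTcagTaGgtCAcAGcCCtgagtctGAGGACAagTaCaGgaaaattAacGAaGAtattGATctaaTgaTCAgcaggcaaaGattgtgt
Mef2d alpha2: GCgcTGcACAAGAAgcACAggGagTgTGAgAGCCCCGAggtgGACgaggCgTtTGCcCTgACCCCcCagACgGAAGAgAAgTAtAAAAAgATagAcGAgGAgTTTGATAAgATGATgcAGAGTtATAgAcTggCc
Mef2c alpha2-type: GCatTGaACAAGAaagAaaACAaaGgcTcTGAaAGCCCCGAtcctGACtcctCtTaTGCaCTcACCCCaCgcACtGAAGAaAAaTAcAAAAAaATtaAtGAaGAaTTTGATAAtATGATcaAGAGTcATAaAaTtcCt

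The printed α2-type exons of Mef2d and Mef2c had 90 bases in common and the 3 α1-type exons 67, so these counts cover unlike numbers of exons. In pairwise alignments of Mef2d with Mef2c, the α1-type exons matched at 92 bases and the α2-type exons at 90. Within Mef2d, α1 and α2 were identical in 51.4% of aligned positions, so the deleted exon was less like its neighbour in the same gene than like the α2-type exon of Mef2c (65.2%). The α1-type exon of Mef2c was 63.9% identical to Mef2d α1 and 57.9% to Mef2d α2. The α1-type exon of Mef2a was the least distinct, with 54.5% identity to Mef2d α1 and 51.0% to Mef2d α2. In Mef2d and Mef2c the α1-type exon came first, and the α2-type exon followed after 49 and 61 bases. An α1-type and an α2-type exon occurred together in 0 of 4 annotated coding transcripts of Mef2d and 1 of 27 of Mef2c. Of the 4 coding transcripts of Mef2d, 3 held α1 and 1 held α2. Mef2b has a single exon at this place, chr8:70165530-70165664 on the plus strand, which was 55.3% identical to Mef2d α1 and 45.4% to Mef2d α2. The exon before it, which encodes the DNA-binding domain, is 204 bases long in all 4 genes and was between 76.0% and 85.8% identical between them, highest between Mef2c and Mef2d. All of the exons compared have lengths that are multiples of 3.

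**Figure D1:**
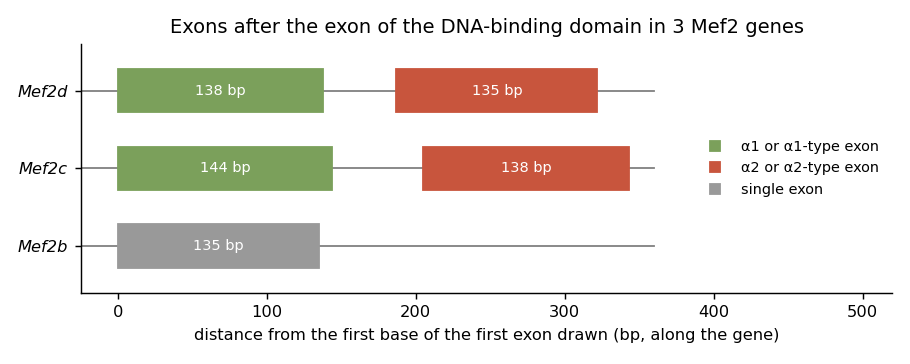
Exons that follow the exon of the DNA-binding domain in Mef2d, Mef2c and Mef2b, drawn to scale along each gene, with the distance in base pairs from the first base of the first exon drawn on the horizontal axis. Mef2d and Mef2c each have an α1-type exon followed by an α2-type exon, 49 and 61 bases later, and Mef2b has 1 exon.

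Mef2c was the most abundant of the MEF2 genes in all 4 libraries. Its level per length was 347 and 368 CPM per kb in the WT mice and 357 and 358 CPM per kb in the Mef2dα2 Eko mice. Mef2d followed with 83.4 and 73.1 CPM per kb in WT and 80.9 and 77.3 CPM per kb in Mef2dα2 Eko mice. Mef2a was below Mef2d in every library, with 70.8 and 67.6 CPM per kb in WT and 71.4 and 76.1 CPM per kb in Mef2dα2 Eko mice. The levels of Mef2d and Mef2a did not overlap within a genotype. Mef2b was near the limit of detection, with 10 and 0 counts in the WT and 2 and 0 counts in the Mef2dα2 Eko libraries. A count of 0 allows a level of up to 0.0371 CPM in the second WT and 0.0419 CPM in the second Mef2dα2 Eko library, taken as 3 counts, which covers counting error only.

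Among the cofactors, levels per length were lower than those of Mef2a, Mef2c and Mef2d. Ep300 had 28.6 CPM per kb in both WT mice and 28.3 and 32.5 CPM per kb in the Mef2dα2 Eko mice, and Vgll2 had 28.3 and 29.8 CPM per kb in WT and 21.6 and 23.4 CPM per kb in Mef2dα2 Eko mice. By this length, the levels of Ep300 and Vgll2 overlapped in WT and did not overlap in Mef2dα2 Eko mice. Kmt2d lay between 10.3 and 11.6 CPM per kb and Vgll4 between 8.18 and 12.3 CPM per kb, and Vgll4 exceeded Kmt2d in the first Mef2dα2 Eko library. Ash2l ranged from 5.67 to 6.43 CPM per kb and Cabin1 from 4.18 to 5.28 CPM per kb. The order of the leading 3 genes, Mef2c, Mef2d and Mef2a, was the same with the longest transcript or the coding length as the divisor. The order of the cofactors was not: by coding length Vgll4, at 13.0 CPM per kb in WT, stood above Ep300 at 10.8 CPM per kb. Vgll2 then had 39.3 CPM per kb in WT and 30.5 CPM per kb in Mef2dα2 Eko mice, against 10.8 and 11.5 for Ep300. With the longest transcript, Vgll2 had 23.0 CPM per kb in WT and Ep300 8.2 CPM per kb. The overlap of Ep300 and Vgll2 thus depends on the length used.

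**Figure D2:**
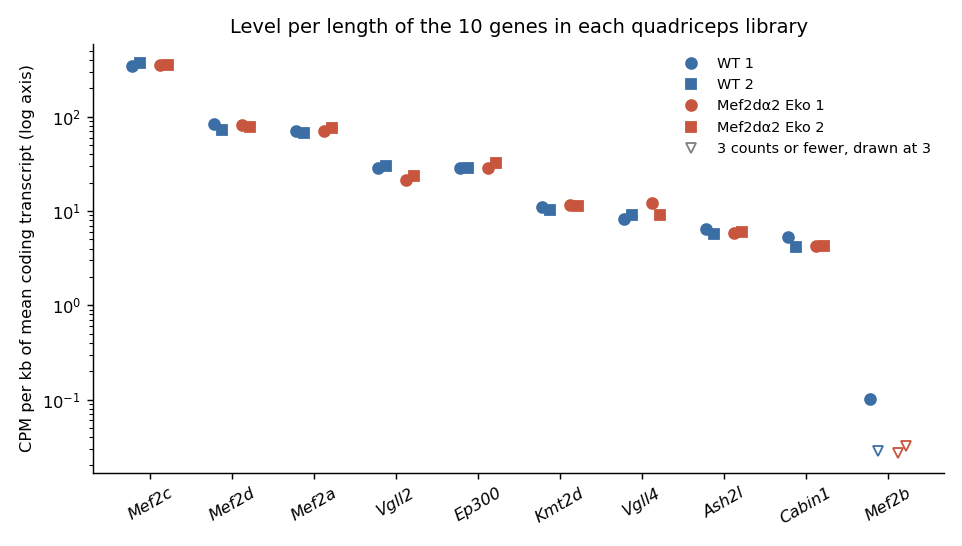
Level of each of the 10 genes in CPM per kb of mean coding transcript on a log axis, with 1 point per library, circles for the first and squares for the second mouse of a genotype, and open triangles for libraries with 3 counts or fewer, drawn at 3 counts. Mef2c stood above every other gene in each library, and the Vgll2 points of the Mef2dα2 Eko mice, at 21.6 and 23.4, lay below those of the WT mice at 28.3 and 29.8.

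The shares of Mef2c, Mef2d and Mef2a in the MEF2 pool overlapped between the genotypes. Of the summed MEF2 level per kb, Mef2c supplied 69.2% and 72.3% in the WT libraries and 70.1% and 70.0% in the knockout libraries. Mef2d supplied 15.5% ± 1.6 (SD, n = 2) in WT and 15.5% ± 0.538 (SD, n = 2) in Mef2dα2 Eko mice, and Mef2a 13.7% ± 0.591 and 14.4% ± 0.606 (SD, n = 2 each). Mef2b made up at most 0.0203% in any library. The summed level itself was 501 and 509 CPM per kb in WT and 510 and 512 CPM per kb in Mef2dα2 Eko mice. The shares depend on the length used: with the longest transcript as the divisor Mef2c supplied 60.6% in WT and Mef2d 22.0%. The shares were not tested, since 0.333 is the smallest two-sided p that exact permutation of 2 against 2 mice can reach.

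**Figure D3:**
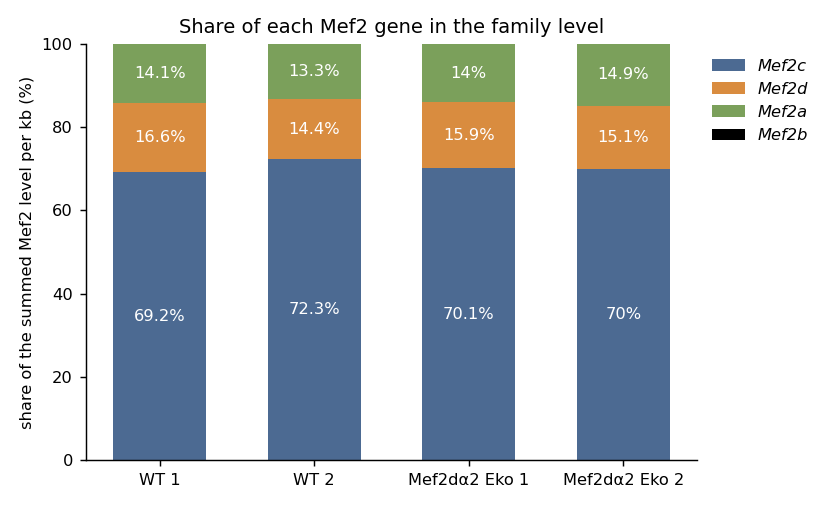
Share of each Mef2 gene in the summed MEF2 level per kb, in percent, as 1 stacked bar per library. Mef2c held 69.2% to 72.3% and Mef2d 14.4% to 16.6% in the 4 libraries, and Mef2b is too low to be seen.

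Of the 10 genes, 9 had enough counts to be tested and Mef2b did not. By edgeR, 0 of the 9 passed an adjusted p of 0.05, a threshold that 0.416% of all genes tested passed. DESeq2, the program the study used, was run anew and called 1 of them, Vgll2, against 2.39% of the genes to which it gave an adjusted p. This run is not the study's own, and its calls are not compared here with those of the study. With no filter on low counts edgeR also called Vgll2, against 3.25% of all genes in that fit. The fit with no filter follows the spread of single genes less closely, so its adjusted p-values are weaker evidence. An unadjusted p below 0.05 was found for 1 of the 9, again Vgll2, and for 11.6% of all genes tested. The libraries of the genotypes did not overlap for 3 of the 9 genes, against 43.8% of all genes tested. Mef2a and Kmt2d were the 2 higher in both Mef2dα2 Eko mice and Vgll2 the 1 lower, against backgrounds of 20.8% and 23%. The log2 fold change was positive for 6 of the 9 genes and negative for 3, against 48.7% and 51.3% of all genes tested. The median log2 fold change of the 9 genes was 0.02 and that of all genes tested -0.0051.

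Mef2d (ENSMUSG00000001419.17, chr3:88142372-88172086, plus strand), the gene that carries the deletion, showed 259 and 227 CPM in the WT and 252 and 241 CPM in the Mef2dα2 Eko mice. Both knockout values fell between the WT values. Its log2 fold change was 0.02, with a 95% interval from -0.18 to 0.21 (standard error 0.08, adjusted p = 0.960 by edgeR). The counts add up all exons of the gene and do not separate α1 from α2, so they are no check of the deletion. On the other strand Mef2d shares 531 exonic bases with the antisense gene 1700113A16Rik, which had between 12 and 28 counts in a library, and a strand setting for the counting is not given in the sources used here.

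Mef2c (ENSMUSG00000005583.16, chr13:83504034-83667080, plus strand), the predominant paralogue, had 757 and 802 CPM in WT and 779 and 782 CPM in Mef2dα2 Eko mice, so the knockout values again lay within the WT range. The log2 fold change of 0.00198 (standard error 0.07, interval -0.17 to 0.17, adjusted p = 0.996 by edgeR) spans 0.891 to 1.13 times the WT level. Endothelial cells and macrophages also express Mef2c. The summed level of 5 endothelial markers was 147 and 133 CPM in WT and 126 and 145 CPM in Mef2dα2 Eko mice. The macrophage markers Csf1r and C1qa, chosen after their values were seen, had 7.30 and 6.11 CPM and 7.56 and 6.78 CPM in WT, and 5.12 and 3.47 CPM and 5.49 and 3.85 CPM in Mef2dα2 Eko mice. None of these markers was called, and their part in the level of Mef2c was not tested.

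Mef2a (ENSMUSG00000030557.17, chr7:67231163-67372858, minus strand) had 202 and 193 CPM in the WT mice and 204 and 217 CPM in the Mef2dα2 Eko mice. Both knockout mice were above both WT mice, by a margin smaller than the gap between the mice of either genotype. This came to a log2 fold change of 0.09 (standard error 0.07, interval -0.07 to 0.26, adjusted p = 0.665 by edgeR). Mef2a shares 302 exonic bases with Lysmd4 on the other strand, and Lysmd4 had between 603 and 874 counts against at least 15346 for Mef2a. Mef2b (ENSMUSG00000079033.10, chr8:70139711-70167488, plus strand) overlaps Borcs8 on its own strand over 62 exonic bases, and with 150 to 194 counts Borcs8 was above Mef2b in each library, so the few Mef2b counts depend on how RSEM divided shared reads.

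Vgll2 (ENSMUSG00000049641.14, chr10:52022502-52028471, plus strand), a cofactor of TEAD and MEF2 in skeletal muscle, had the smallest p of the 9 genes. Its level was 37.0 and 39.0 CPM in the WT mice and 28.3 and 30.6 CPM in the Mef2dα2 Eko mice. Both knockout mice lay below both WT mice, and the gap between the groups was wider than the gap between mice of a genotype. The log2 fold change was -0.37 (standard error 0.08, 95% interval -0.55 to -0.19), or 77.4% of the WT level, with an unadjusted p of 0.00195 from edgeR's model and an adjusted p of 0.156. With DESeq2 the log2 fold change was -0.36 with an adjusted p of 0.0264, and with no filter on low counts edgeR gave an adjusted p of 0.00284. Over the 10 alternatives the adjusted p lay between 0.00284 and 0.324, and the log2 fold change between -0.43 and -0.30. In RNA of a whole muscle, fewer cells of a type and less RNA per cell cannot be told apart.

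Markers of muscle fibres and of other cells in the tissue were read beside Vgll2. The 8 skeletal muscle markers summed to 129000 and 132000 CPM in WT and 130000 and 136000 CPM in Mef2dα2 Eko mice. The log2 fold change was negative for 4 of them and positive for the other 4. It was -0.51 for Myh2 and -0.44 for Myh1, myosin heavy chains of type IIa and IIx fibres (adjusted p = 0.161 and 0.261 by edgeR), -0.24 for Myh7 and -0.14 for Acta1. On the other side it was 0.22 for Ttn, 0.12 for Mylpf, 0.07 for Myh4, the myosin heavy chain of type IIb fibres, and 0.0027 for Ckm. The 6 adipocyte markers summed to 159 and 96.3 CPM in WT and 91.3 and 70.4 CPM in Mef2dα2 Eko mice, highest in the first WT library, and the 5 nerve and Schwann cell markers to 20.2 and 22.2 CPM against 23.8 and 30.5 CPM. The 7 macrophage and B cell markers summed to 17.8 and 14.8 CPM in WT and 12.4 and 8.56 CPM in Mef2dα2 Eko mice. The 4 fibroblast markers summed to between 263 and 341 CPM and the 4 smooth muscle and satellite cell markers to between 25.7 and 32.1 CPM. By edgeR 0 marker genes of any list were called, and the part of these levels in the Vgll2 values was not tested. Without the first WT library the log2 fold change of Vgll2 was -0.41.

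Vgll4 (ENSMUSG00000030315.15, chr6:114860628-114969994, minus strand), a VGLL protein that competes with YAP for TEAD binding, had 10.7 and 11.7 CPM in WT and 16.1 and 11.7 CPM in Mef2dα2 Eko mice. The first Mef2dα2 Eko library stood apart, with 1386 counts against 809 to 949 in the other libraries, and the second lay at the level of the higher WT mouse. The log2 fold change was 0.31 (standard error 0.15, interval -0.05 to 0.67, adjusted p = 0.488 by edgeR) and dropped to 0.08 without the first Mef2dα2 Eko library. The ratio of Vgll2 to Vgll4 in CPM was 3.47 and 3.33 for the WT libraries, and 1.76 and 2.61 for the knockout libraries. The ratios did not overlap between the genotypes, and the lowest ratio comes from the library with the high Vgll4 value.

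**Figure D4:**
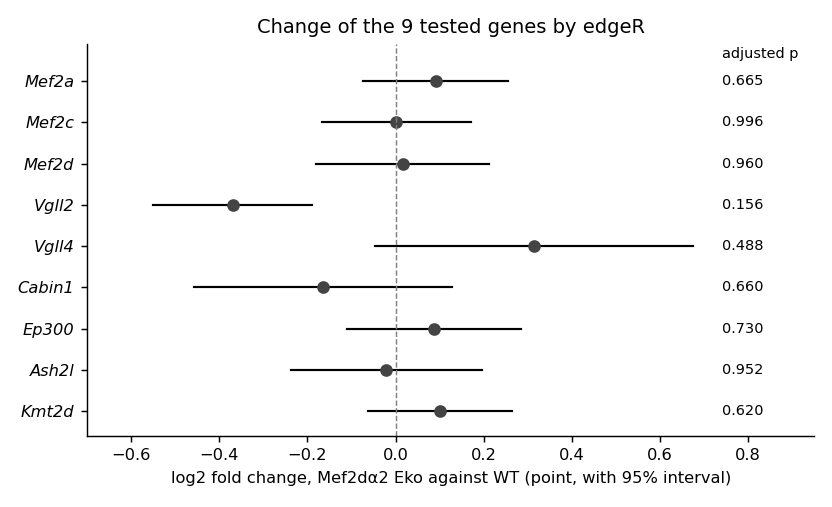
Log2 fold change of the 9 tested genes, Mef2dα2 Eko against WT, with the 95% interval of edgeR's model as a line and the adjusted p at the right. The interval of Vgll2, from -0.55 to -0.19, lay below 0 and those of the other 8 genes included 0.

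Cabin1 (ENSMUSG00000020196.10, chr10:75646112-75764341, minus strand), a repressor that recruits histone deacetylases to MEF2 and binds calcineurin, had 13.8 and 10.9 CPM in WT and 11.1 and 11.0 CPM in Mef2dα2 Eko mice. The first WT library was high, and the other 3 lay between 10.9 and 11.1 CPM. Cabin1 had a log2 fold change of -0.16 (standard error 0.12, interval -0.46 to 0.13, adjusted p = 0.660 by edgeR) and 0.01 without the first WT library. Ep300 (ENSMUSG00000055024.12, chr15:81585351-81652077, plus strand), the histone acetyltransferase p300, had 78.5 and 78.4 CPM in WT and 77.6 and 89.2 CPM in Mef2dα2 Eko mice. The second Mef2dα2 Eko mouse was above the others and the first below both WT mice. For Ep300 the log2 fold change was 0.09 (standard error 0.08, interval -0.11 to 0.29, adjusted p = 0.730), and -0.02 without the second Mef2dα2 Eko library.

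Kmt2d (ENSMUSG00000048154.17, chr15:98831669-98871204, minus strand), a methyltransferase of histone H3 lysine 4 at enhancers, had 114 and 106 CPM in WT and 120 and 117 CPM in Mef2dα2 Eko mice. Both knockout mice were above both WT mice, with a log2 fold change of 0.10 (standard error 0.07, interval -0.06 to 0.26, adjusted p = 0.620 by edgeR). Ash2l (ENSMUSG00000031575.18, chr8:25815996-25847694, minus strand), a core subunit of these methyltransferase complexes, had 15.8 and 14.0 CPM in WT and 14.5 and 14.9 CPM in Mef2dα2 Eko mice. Both knockout values fell within the WT range, and the log2 fold change was -0.02 (standard error 0.09, interval -0.24 to 0.20, adjusted p = 0.952).

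The promoters of the genes were searched for the binding sequences of the factors themselves. RefSeq promoters of 300 bases on GRCm38.p6, from 250 before to 50 after the start, were at hand for 9 of the 10 genes, 11 promoters in all with 3 for Mef2c, and none for Ash2l. The MEF2 consensus, read on both strands, was present in 1 of the 11, that of Mef2a, where it begins 2 bases before the annotated start, against 3.19% of all 32851 promoters. The site is shown with 10 bases on each side, chr7:67372841-67372870 on the minus strand, with the match in capitals.
Mef2a promoter site: ggcctgactcCTAAAAATAGccccggtgtg
The MCAT element CATTCC, the sequence that TEAD factors bind, was present in 2 of the 11 promoters, those of Vgll4 and of the first start of Mef2c, against 14.66% of all promoters. Neither sequence was found in these 300 bases of Vgll2. A match describes the letters and not a bound site.

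Around the 10 genes, 115 partner and target genes of MEF2 were followed in 8 lists, of which 113 were tested. In edgeR's test 2 were called lower, Igfn1 and Bdh1, against 0.31% of all genes tested, and 0 higher, against 0.105%, with 17 at an unadjusted p below 0.05, against 11.6% of all genes tested. Their median log2 fold change was -0.01, and the libraries of the genotypes did not overlap for 57 of the 113, against 43.8% of all genes tested. DESeq2 called 7, where it called 2.39% of the genes to which it gave an adjusted p. With no filter on low counts edgeR called 13, where it called 3.25% of all genes in that fit.

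The partners of the VGLL proteins were 8 genes, of which 7 were tested and 0 called, and Vgll1 had 0 counts. Tead1, a TEAD factor through which VGLL proteins reach DNA, had 334 and 373 CPM in WT and 372 and 399 CPM in Mef2dα2 Eko mice, with a log2 fold change of 0.13 (adjusted p = 0.603). Tead4 had -0.14 (adjusted p = 0.758) and Vgll3, the highest of the list, 0.24 (adjusted p = 0.666). Tead2 was the lowest at -0.31 (adjusted p = 0.701), at under 1 CPM.

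The H3K4 methyltransferase complex list held 15 genes, of which 14 were tested and 0 called. With no filter on low counts 1 was called, against 3.25% of all genes in that fit. The values ran from -0.15 for Cxxc1, a CpG-binding subunit (adjusted p = 0.562), to 0.18 for Kdm6a, the H3K27 demethylase that sits in the same complex as Kmt2d (adjusted p = 0.503). Kmt2c, the paralogue of Kmt2d, had 70.0 and 71.8 CPM in WT and 74.6 and 79.9 CPM in Mef2dα2 Eko mice, which gave a log2 fold change of 0.12 (adjusted p = 0.547). The core subunits Wdr5 and Rbbp5, partners of Ash2l, had 0.02 (adjusted p = 0.944) and 0.06 (adjusted p = 0.825). Pagr1a did not pass the filter, with 139 counts in the first Mef2dα2 Eko library and 9 or fewer in the others.

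Among 14 acetyltransferases and coactivators 0 were called. Crebbp, the paralogue of Ep300, had 44.5 and 42.6 CPM in WT and 43.3 and 45 CPM in Mef2dα2 Eko mice, which gave a log2 fold change of 0.02 (adjusted p = 0.943 by edgeR). The lowest and highest of the list were Kat2a at -0.15 (adjusted p = 0.539) and Mamstr, a MEF2 coactivator of skeletal muscle, at 0.24 (adjusted p = 0.685). Of the 13 corepressors 0 were called. The class II deacetylases Hdac4, Hdac5 and Hdac9 had log2 fold changes of 0.19, 0.08 and 0.11, with adjusted p-values of 0.419, 0.724 and 0.792. The list ran from Ctbp2 at -0.33 (adjusted p = 0.518) to Suv39h1 at 0.24 (adjusted p = 0.510).

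Of the 18 genes that signal to MEF2, 0 were called. Rcan1, a calcineurin inhibitor that calcineurin signalling itself induces, was the lowest at -0.66 (adjusted p = 0.436), with 120 CPM in the second WT mouse and 50.1 to 66.0 CPM in the others. Without that mouse its log2 fold change was -0.10, without the first WT mouse it was -1.05 (adjusted p = 0.0207 by edgeR), and with no filter on low counts the adjusted p was 4.92e-12. The standard error of Rcan1 was 0.086 with no filter against 0.28 in the main fit, although its WT mice differed widely. Ppp3ca, a catalytic subunit of calcineurin, was the highest at 0.26 (adjusted p = 0.367), with 212 and 255 CPM in WT and 279 and 281 CPM in Mef2dα2 Eko mice. It was 0.14 without the first WT mouse and 0.42 without the second (adjusted p = 0.0402 by edgeR), and with no filter the adjusted p was 0.0425. The 18 DNA-binding partners, Tead1 among them, also had 0 calls, and 1 with no filter, against 3.25% of all genes in that fit. They ran from Gata4 at -0.86 (adjusted p = 0.627), at under 1 CPM, to Myf5 at 0.56 (adjusted p = 0.560). Srf, a fellow MADS-domain factor, had -0.22 (adjusted p = 0.437), and the myogenic factors Myod1 and Myog had -0.23 (adjusted p = 0.672) and -0.19 (adjusted p = 0.900).

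The 27 muscle target genes of MEF2 held both calls. Igfn1, a gene for a skeletal muscle protein with immunoglobulin-like and fibronectin domains, had 90.3 and 45 CPM in WT and 12.2 and 14.1 CPM in Mef2dα2 Eko mice, which gave a log2 fold change of -2.36 (adjusted p = 0.0463 by edgeR). Its adjusted p rose to 0.0613 with a filter of 1 CPM in 2 libraries and to 0.0582 with limma-voom. Bdh1, the enzyme that interconverts the ketone bodies 3-hydroxybutyrate and acetoacetate, had 29.8 and 28.1 CPM in WT and 13.5 and 10.7 CPM in Mef2dα2 Eko mice, which gave a log2 fold change of -1.26 (adjusted p = 0.0301). The study picked Bdh1 from these libraries, and both genes were put on the list with their values known, so their place on it is not independent evidence of its direction. Jun was the highest at 0.34 (adjusted p = 0.283), with an adjusted p of 0.00315 with no filter and 0.0283 without the second WT mouse. Slc2a4, the glucose transporter GLUT4, had 0.00778 (adjusted p = 0.980). The median of the list was -0.06, with 17 of the 27 genes negative and 10 positive, against 51.3% and 48.7% of all genes tested. An unadjusted p below 0.05 by edgeR was found for 9 of the 27, against 11.6% of all genes tested. DESeq2 called 6 of the list, against 2.39% of the genes to which it gave an adjusted p.

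The α2 exon is included in muscle by the splicing factors of the RBFOX and MBNL families, and 0 of 4 were called. Rbfox1 had 277 and 286 CPM in WT and 314 and 311 CPM in Mef2dα2 Eko mice, which gave a log2 fold change of 0.15 (adjusted p = 0.432 by edgeR). Mbnl1 had 466 and 451 CPM against 552 and 545 CPM, a log2 fold change of 0.26 with an adjusted p of 0.232, of 0.0201 with DESeq2 and of 0.0477 with no filter. Mbnl2 was the lowest at -0.11 (adjusted p = 0.715).

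**Figure D5:**
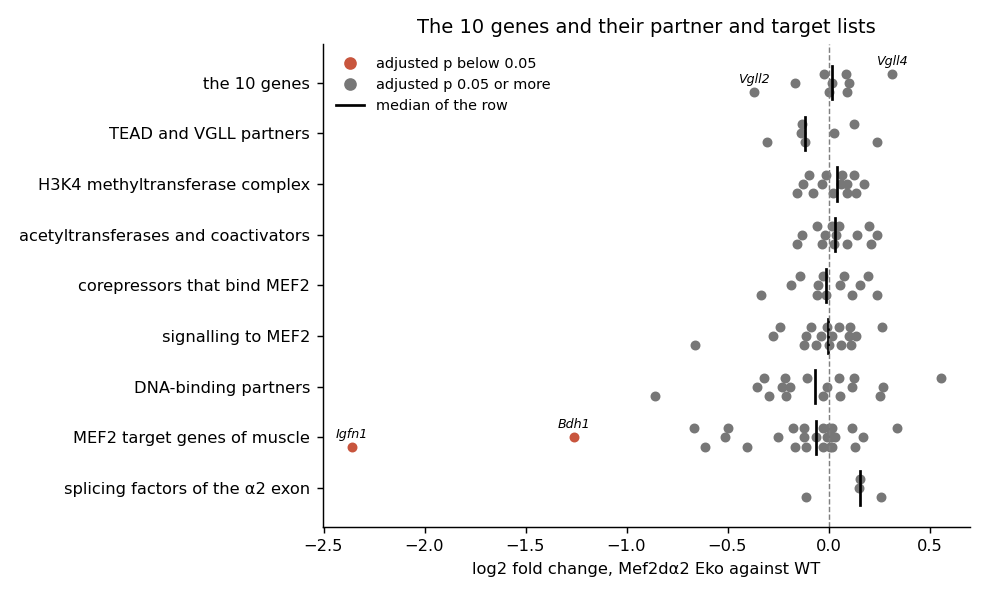
Log2 fold change, Mef2dα2 Eko against WT, of each tested gene in a row per list, with black bars at the medians and red points for genes with an adjusted p below 0.05 in edgeR. Igfn1 at -2.36 and Bdh1 at -1.26 are the red points, and Vgll2 and Vgll4 lie at the lower and upper ends of the row of the 10 genes.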

How the data were processed

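PolyA RNA of quadriceps from 2 WT and 2 Mef2dα2 Eko mice was sequenced, 1 library per mouse, and groups follow the sample labels. The authors aligned reads to mm10 (STAR 2.6.1a, per the submitters' processing notes) and estimated counts with RSEM on an Ensembl GRCm38 annotation, and the deposited values are these expected counts with no normalization. All were whole numbers, so rounding changed none. RSEM divides reads shared by genes with a model. Library totals ranged from 72626757 to 85176059, and 3 counts correspond to 0.0348 to 0.0419 CPM.

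The counts were analysed in R 4.3.3 with edgeR 4.0.16 (TMM, default filter on low counts, quasi-likelihood test with genotype as the sole term, Benjamini-Hochberg adjustment over 16120 genes, threshold 0.05), and tested on simulated data. DESeq2 1.42.0, RLE scaling, no filter, 1 CPM in 2 libraries, limma 3.58.1 voom, a replicate block, leaving out each mouse and other lengths were the alternatives. Gene limits and lengths are from GENCODE M21, exon alignments from MAFFT 7.526 and Biopython 1.88, promoters from RefSeq. The labels number separate mice, so p-values measure the spread between them.

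The 10 genes and all lists were chosen with earlier results of these data known. Beside the 10, the text names genes called in a list, the lowest and highest of each list, Crebbp, Kmt2c, Wdr5, Rbbp5, Tead1, Tead4, Vgll3, Hdac4, Hdac5, Hdac9, Srf, Myod1, Myog, Slc2a4, Igfn1, Bdh1, Rbfox1 and Mbnl1, and genes that overlap a member. Outside this rule, the skeletal muscle markers, Csf1r and C1qa, and the untested Pagr1a and Vgll1 were named after their values were seen. Genes most like a member were not sought, with 4 libraries. Splicing was not analysed here, since the table holds 1 count per gene. A further marker gene and a further exon sequence are not reported here.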

Additional observations from a re-analysis of the deposited data

How the results depend on the processing

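With 2 mice a genotype, the data are compatible with any change inside a gene's interval, and a p that misses the threshold does not show equal levels. Vgll2 was called with DESeq2 (log2 fold change -0.36, adjusted p = 0.0264) and with no filter on low counts (-0.37, adjusted p = 0.00284), 1 gene of the 10 each, and the cause was not tested. Its direction and that of Mef2a, Vgll4 and Kmt2d held under all 10 alternatives. Mef2c turned negative at 1 CPM in 2 libraries (-0.00104). Over all genes tested, 67 were called, against 318 with DESeq2, 799 with no filter and 23 at 1 CPM in 2 libraries. With no filter the standard error fell from 0.28 to 0.086 for Rcan1 and from 0.30 to 0.095 for Igfn1. For Vgll2 it rose from 0.076 to 0.091. The fit with no filter thus follows the spread of single genes less closely, and its adjusted p-values are weaker evidence. Of the partner and target genes 2 were called, against 7 with DESeq2, 13 with no filter, 1 at 1 CPM in 2 libraries and 1 with limma-voom.

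The replicate numbers mark different mice, and the deviations of same-numbered mice from their genotype mean correlated at 0.0909 over 16120 genes. The study describes the mice as littermates, and the labels do not say which mice shared a litter. With a replicate block 186 genes, 7 partner and target genes and 0 of the 10 genes were called, and the adjusted p of Vgll2 was 0.0674.

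Leaving out each mouse in turn, where the lone mouse of a genotype is assumed to vary like the others, gave between 99 and 299 called genes, highest without WT replicate 2, and between 3 and 7 called partner and target genes. Log2 fold changes ran from -0.039 (without WT replicate 1) to 0.060 for Mef2c, which also turned negative without Mef2dα2 Eko replicate 2 (-2.17e-05). They ran from -0.061 (without WT replicate 2) to 0.11 for Mef2d, also negative without Mef2dα2 Eko replicate 1 (-0.00287), and from -0.31 to 0.013 for Cabin1, above 0 without WT replicate 1. The range was -0.016 to 0.20 for Ep300, below 0 without Mef2dα2 Eko replicate 2, and -0.095 to 0.073 for Ash2l, above 0 without WT replicate 1 and without Mef2dα2 Eko replicate 1 (0.010). Vgll2 lay between -0.43 and -0.30, Vgll4 between 0.081 and 0.52, Mef2a between 0.045 and 0.15 and Kmt2d between 0.067 and 0.15. Among the partners and targets whose sign turned the ranges were -0.0080 to 0.060 for Crebbp, -0.0065 to 0.063 for Wdr5, -0.31 to 0.037 for Tead4, -0.56 to 0.052 for Myod1, -0.68 to 0.59 for Myog, -0.028 to 0.060 for Slc2a4, -1.43 to 0.12 for Gata4 and -0.23 to 0.030 for Mbnl2. Without a turn of sign they were 0.0027 to 0.54 for Mamstr, 0.0065 to 0.46 for Vgll3, 0.0045 to 0.23 for Hdac9, 0.14 to 0.91 for Myf5, 0.015 to 0.12 for Rbbp5, 0.049 to 0.22 for Tead1, 0.14 to 0.42 for Ppp3ca, 0.11 to 0.29 for Hdac4, 0.049 to 0.12 for Hdac5, 0.073 to 0.19 for Kmt2c, 0.21 to 0.49 for Jun, -0.56 to -0.041 for Ctbp2, -1.05 to -0.10 for Rcan1, -0.32 to -0.086 for Srf, -2.76 to -1.77 for Igfn1 and -1.43 to -1.10 for Bdh1.

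The shares of the MEF2 family moved with the length used. With the longest transcript, the coding length and no division by length, Mef2c held 60.6%, 64.9% and 63.9% in WT against 59.8%, 64.1% and 63.1% in Mef2dα2 Eko mice. Mef2d held 22%, 19.1% and 19.9% against 21.9%, 19% and 19.9%, and Mef2a 17.4%, 16% and 16.2% against 18.3%, 16.8% and 17%.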
